A study of Mus musculus with 4 samples.

Results

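The genes described here are the expressed members of the Zfp series, the mouse genes named zinc finger protein with a number, in embryos at the 2-cell stage. Members were all protein-coding genes of GENCODE M21 whose symbol is Zfp followed by a digit and whose mean over the 4 libraries was at least 5 CPM (counts over the library total, times 1e6), leaving out Zfp352, Zfp750, Zfp57, Zfp42 and the Zfp36 genes. Of 394 such genes 8 were left out by name, 235 of the remaining 386 were at or above 5 CPM, and 151 were below it. Members were thus chosen by their mean CPM, so their levels are given as a description. The mean was taken over both groups, and 12 members had a group mean under 5 CPM, so these met the threshold only through the group in which they were higher. The 4 libraries came from whole embryos of the C57BL/DBA2 strain. Zygotes taken from the oviduct were injected with siRNA at 20 μM, either the control siNC or an siRNA of SPENH0335, and then kept in KSOM, an embryo culture medium. Each group, called control and knockdown below, has 2 libraries of polyA RNA made from pre-amplified cDNA. All embryos were therefore injected. The gene table has no row for SPENH0335, so how far it was knocked down was not measured here, and the comparison asks which Zfp genes differed in level between the injections.

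A C2H2 zinc finger is a short fold held together by a zinc ion, and arrays of such fingers let a protein read a DNA sequence. In many mouse Zfp proteins the fingers follow a KRAB domain, which recruits the corepressor Trim28 and through it the histone methyltransferase Setdb1, so that the bound DNA is packed into heterochromatin. KRAB zinc finger genes lie in clusters that grew by repeated duplication, many of them bind transposable elements, and in the early embryo they are known for silencing endogenous retroviruses and for guarding imprinted methylation. Zfp proteins without KRAB have other roles, in transcription, splicing, translation and chromosome segregation among them.

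Total counts of a library ran from 78865491 to 99011109, and 29472 to 29876 genes had a count. Genes that mark the 2-cell stage summed to 1199 and 1230 CPM in control and 1365 and 1339 CPM in knockdown over 12 genes, and 12 maternal oocyte genes to 5640 and 5637 CPM in control and 5117 and 5413 CPM in knockdown. For both lists the sums did not overlap between the groups, and their part in the values below was not tested. In the 2-cell list 4 of 12 genes were higher in knockdown without overlap, Zfp352 and the Zscan4 copies Zscan4c, Zscan4d and Zscan4f. Another 2 were lower without overlap, Arg2 and Tcstv3. In the maternal list 0 of 12 genes were higher and 7 lower without overlap. Of all genes tested, 15.6% were higher and 17.1% lower without overlap. Zscan4f was at 147 and 158 CPM in control and 238 and 211 CPM in knockdown, and Arg2 at 135 and 109 CPM in control and 78.9 and 85.1 CPM in knockdown. Markers of cumulus and granulosa cells summed to between 46.6 and 64.6 CPM, with 8 of 12 under 1 CPM. Most of that sum was Cyp19a1, at 36.8 to 55.7 CPM. Sperm markers summed to between 9.71 and 17.7 CPM, and blood, oviduct and stroma markers to between 93.7 and 126 CPM. In that last list Pecam1 was at 49.3 to 61.1 CPM, Epcam at 14.7 to 32.8 CPM, Hba-a1 at 10.4 to 27.1 CPM and Lyz2 at 1.44 to 19.4 CPM, 5 of 12 genes were under 1 CPM on average, and Hbb-bs was at 0 in every library. The part of these cells in the values below was not tested. By chi-square over its degrees of freedom on all counts, the knockdown libraries were the least alike pair at 94.8, the controls the most alike at 28.8, and pairs of a control and a knockdown library lay at 43.5 to 65.4. In whole embryos, fewer cells of a kind and less RNA per cell cannot be told apart.

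No Zfp gene passed an adjusted p of 0.05 between knockdown and control in edgeR's quasi-likelihood test, which covered 25565 genes and all 235 members, and 0.0% of all genes tested did. The smallest adjusted p among the members was 0.9999. At an unadjusted p under 0.05 there were 12 members, 5 higher and 7 lower in knockdown, which is 5.11% of the members against 3.85% of all genes tested, and 2.74% of the 10447 tested genes that reached 5 CPM on average. Of the 12, Zfp146, Zfp575 and Zfp970 met the threshold only through their higher group. Among the 223 members with both group means at 5 CPM or more, 9 had such a p, 4.04%. The count over all members moved with the libraries used: it was 49 without knockdown 1, 27 without knockdown 2, 4 without control 1 and 7 with the replicate number as a block. By direction, the shares over all genes tested were 1.56% higher and 2.29% lower. With DESeq2, which called 0.144% of the genes it tested, 2 members passed an adjusted p under 0.05, Zfp808 and Zfp146, both lower in knockdown. With limma-voom 0 members passed, and 13 had an unadjusted p under 0.05.

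Fold changes of the 235 genes were centred near 0. Their median log2 fold change, knockdown over control, was 0.0032, against -0.0025 over all genes tested. Above 0 were 118 members and below 0 were 117, so 50.2% lay above, against 49.7% of all genes. Summed TMM-scaled CPM (CPM after scaling by the trimmed mean of M-values) was 15451 and 14874 in control and 14758 and 15964 in knockdown, and the control sums lay between those of knockdown. The knockdown values of 78 members, 33.2%, did not overlap the control values, 37 higher and 41 lower, against 32.7% of all genes tested, 15.6% higher and 17.1% lower, and 32.1% of the tested genes that reached 5 CPM on average. With 2 libraries against 2, an exact two-sided permutation test of a single value cannot go below p = 0.333, so groups that do not overlap are a description.

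Most of these genes were bounded, as far as the spread between libraries, which may be technical, measures it. For 168 of the 235 the 95% interval of the fold change lay within 2-fold in either direction, 71.5% of them, against 76.2% of all tested genes that reached this level. Of the 58 members from 5 CPM to under 10 CPM, 18 had such an interval, 31.0%. Of the 12 with a group mean under 5 CPM, 0 had one. The median absolute log2 difference of a member was 0.17 between the control libraries, 0.28 between the knockdown libraries and 0.15 between the group means. Fold changes ran from -0.16 at the lower quartile to 0.14 at the upper, and the extremes were Zfp146 at -1.75 and Zfp937 at 1.22, both members only through their higher group. Zfp937 was at 6.67 and 1.52 CPM in control and 8.43 and 10.6 CPM in knockdown, so both knockdown libraries lay above both controls, which differed widely from each other (95% interval -0.49 to 2.92).

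**Figure D1:**
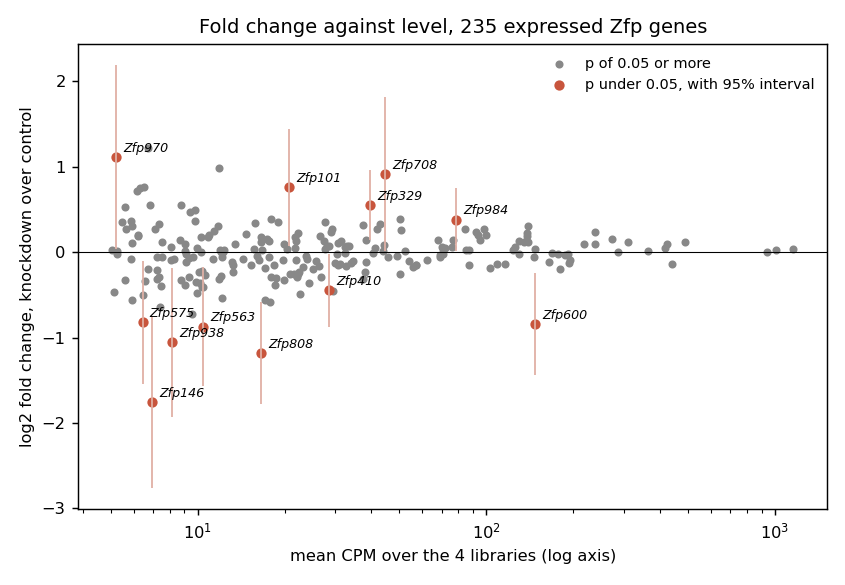
Log2 fold change of each of the 235 expressed Zfp genes, knockdown over control, against its mean CPM over the 4 libraries on a log axis. Red points are the 12 genes at an unadjusted p under 0.05 with their 95% intervals, grey points are the others, and the points spread less around 0 toward high levels.

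Levels of the Zfp genes ran over a wide range. Among the 386 candidates, 94 were between 1 and 5 CPM and 57 under 1 CPM, of which 4 had no count in any library. Just inside the threshold were Zfp28 at 5.07 CPM, Zfp772 at 5.13 CPM and Zfp970 at 5.20 CPM, and just outside it Zfp341 at 4.996 CPM, Zfp319 at 4.987 CPM and Zfp991 at 4.941 CPM. Of a panel of 34 Zfp genes named for their known roles, 26 were members. Outside were Zfp292, a transcription factor of the growth hormone gene, at 4.59 CPM, Zfp384 at 3.28 CPM, Zfp459 at 2.65 CPM, Zfp335 at 2.48 CPM, Zfp462 at 2.01 CPM, Zfp607a at 1.19 CPM and Zfp266 at 1.13 CPM, while Zfp640 is annotated as a pseudogene.

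Per kilobase of exon, the median member was at 4.44 CPM per kb, against 6.94 over the 9224 protein-coding genes that met the same level. Only 17 of the 235 lay in the top 10% of those genes, which began at 49.9 CPM per kb. The summed level rested on few genes: the 10 highest by CPM held 38.2% of it and the 50 highest 74.4%.

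The 10 highest per kb mixed KRAB genes of one chromosome 4 cluster with single genes elsewhere. Zfp982 led, at 277 and 273 CPM per kb in control and 303 and 264 CPM per kb in knockdown. Zfp979 followed at 244 and 243 CPM per kb in control and 230 and 263 CPM per kb in knockdown. In both genes the control values lay inside the range of the knockdown values, with log2 fold changes of 0.04 (SE 0.11) and 0.02 (SE 0.10). The values of the pair touch, at 263 and 264 CPM per kb in knockdown 2, and do not separate in that library.

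Zfp655 on chromosome 5, which has 6 finger matches and no KRAB match, was next at 207 and 202 CPM per kb in control and 190 and 229 CPM per kb in knockdown. Zfp706, which encodes a very small protein of 76 codons with 1 finger match, was at 189 and 188 CPM per kb in control and 184 and 193 CPM per kb in knockdown. The values of this pair of genes overlap, and both lie above the remaining members. Zfp978, of the chromosome 4 cluster, stood at 138 and 129 CPM per kb in control and 132 and 113 CPM per kb in knockdown. Zfp735 on chromosome 11 reached 111 and 99.2 CPM per kb in control and 102 and 122 CPM per kb in knockdown, and its range overlaps that of Zfp978. The rest of the 10, Zfp980, Zfp518a, Zfp280b and Zfp932, had means between 66.9 and 77.5 CPM per kb. All 10 had log2 fold changes between -0.12 and 0.12, with no p under 0.05.

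**Figure D2:**
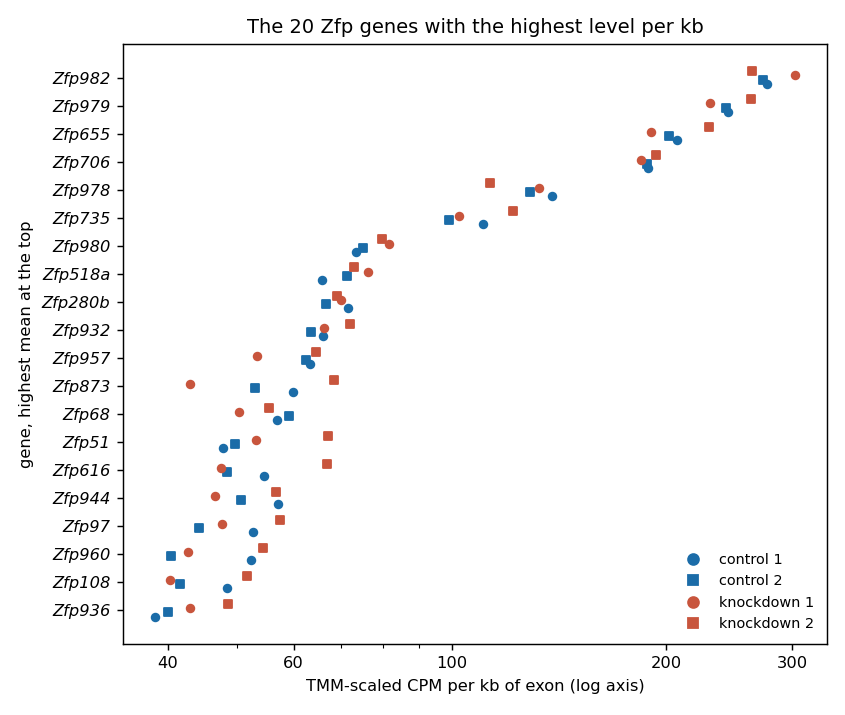
TMM-scaled CPM per kb of exon (log axis) of the 20 expressed Zfp genes with the highest mean, 1 point per library, control in blue and knockdown in red. The top 4 genes have means between 189 and 279 CPM per kb, and control and knockdown points overlap for most genes.

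By position, 184 of the 394 Zfp genes lay in 17 clusters, defined as at least 5 protein-coding Zfp genes with no gap over 500 kb between neighbours, on 8 chromosomes. The other 210 are called scattered. Members were found in 16 of the clusters, 108 in all, and 127 members were scattered. Chromosome 7 held 8 of the clusters, 92 Zfp genes and 52 members, and chromosome 17 held 33 members. Clusters are named below by their first and last gene. A KRAB match was found in the coding sequence of 94 of the 108 clustered members and in 52 of the 127 scattered ones, 146 of 235 in all.

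The cluster with the highest summed level was that of chromosome 4 from Zfp990 to Zfp933 (145510759 to 147848366, GRCm38). It had 14 members among 18 genes, each of the 14 with a KRAB match, and held 14.9% of the summed CPM of all members. The sum was 2294 and 2273 CPM in control and 2195 and 2309 CPM in knockdown. Many of its members share sequence with other genes. At the median, 47.0% of the 75-base stretches in a member's transcripts also occur in transcripts of another gene. This share was over 10% in 11 of the 14, and it was 4.93% in Zfp982, 4.36% in Zfp985 and 0% in Zfp933. Counts of genes that share sequence depend on how shared reads were assigned, and neither the labels nor the sources used here say how.

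The start regions of these genes resemble each other too. The windows below run from 250 bases before to 50 bases after the start of the gene in RefSeq's table on GRCm38.p6. They belong to the 2 members of the cluster with the highest level, Zfp979 (minus strand, chr4:147642459-147642758) and Zfp982 (plus strand, chr4:147492167-147492466), to Zfp600 (plus strand, chr4:146156577-146156876), the member of the cluster with the smallest p, and to their neighbour of low level Zfp985 (plus strand, chr4:147553027-147553326). Capitals mark a run of 21 bases that all 4 hold. It is not the only run they share, and the others are left unmarked.
Zfp979: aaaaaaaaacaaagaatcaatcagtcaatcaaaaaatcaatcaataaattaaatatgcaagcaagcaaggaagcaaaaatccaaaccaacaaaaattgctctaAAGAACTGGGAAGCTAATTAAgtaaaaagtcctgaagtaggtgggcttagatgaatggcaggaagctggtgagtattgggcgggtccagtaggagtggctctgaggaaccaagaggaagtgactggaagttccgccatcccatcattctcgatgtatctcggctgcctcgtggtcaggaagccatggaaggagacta
Zfp982: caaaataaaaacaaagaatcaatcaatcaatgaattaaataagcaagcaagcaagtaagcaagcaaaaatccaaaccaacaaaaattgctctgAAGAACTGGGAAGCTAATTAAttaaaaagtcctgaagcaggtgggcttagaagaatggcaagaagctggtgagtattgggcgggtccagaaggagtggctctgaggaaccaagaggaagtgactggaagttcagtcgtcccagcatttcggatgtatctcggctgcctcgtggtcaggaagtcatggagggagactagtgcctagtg
Zfp600: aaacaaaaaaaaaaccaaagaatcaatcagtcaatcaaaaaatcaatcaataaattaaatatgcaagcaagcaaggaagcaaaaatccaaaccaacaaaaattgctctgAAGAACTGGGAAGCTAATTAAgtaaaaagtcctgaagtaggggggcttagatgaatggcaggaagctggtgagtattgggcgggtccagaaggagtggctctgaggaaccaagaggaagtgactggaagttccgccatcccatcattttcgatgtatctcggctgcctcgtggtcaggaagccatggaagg
Zfp985: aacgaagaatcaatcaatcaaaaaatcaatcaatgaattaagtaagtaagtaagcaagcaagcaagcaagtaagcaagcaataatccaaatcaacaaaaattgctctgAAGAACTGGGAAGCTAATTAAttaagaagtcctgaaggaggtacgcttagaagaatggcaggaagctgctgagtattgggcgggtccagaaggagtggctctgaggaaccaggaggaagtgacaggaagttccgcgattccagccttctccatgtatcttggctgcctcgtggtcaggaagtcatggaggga
Zfp979 and Zfp600 were identical at 289 of 294 aligned bases, 98.3%, and the other pairs at 84.3 to 91.7%. The run in capitals was found in the windows of 8 of the 11 cluster members that have one, and in 9 of 32851 windows of the table on either strand. These 9 windows belong to 9 genes, all on chromosome 4, among them Rex2, a zinc finger gene named apart from the series. Per kb, Zfp979 and Zfp982 stood at means of 245 and 279 CPM, Zfp600 at 29.9 CPM and Zfp985 at 8.28 CPM. Zfp979 and Zfp600, with near-identical start windows, thus differed widely in counted level. They also differ in the share of 75-base stretches that recur in other genes, 23.6% in Zfp979 and 74.5% in Zfp600. The part of shared reads in the difference was not tested.

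Zfp600 (ENSMUSG00000066007, chromosome 4, 146156824 to 146198755) was at 188 and 192 CPM in control and 80.4 and 131 CPM in knockdown. Both knockdown libraries lay below both controls, a log2 fold change of -0.84 (SE 0.24, 95% interval -1.44 to -0.25, adjusted p 0.9999 in edgeR). In Zfp600, 74.5% of the 75-base stretches recur in other genes. Zfp984, at the far end of the cluster, was at 70.2 and 66.8 CPM in control and 80.9 and 97.5 CPM in knockdown, which is a log2 fold change of 0.38 (SE 0.15, 95% interval 0.01 to 0.75). There too the groups did not overlap, in the other direction. Zfp980 was at 294 and 301 CPM in control and 327 and 320 CPM in knockdown, higher without overlap (log2 fold change 0.12, 95% interval -0.11 to 0.35). Of the 14 members 6 lay above 0, and the median log2 fold change was -0.05. Without 1 library at a time that median ran from -0.11 to 0.02.

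The largest cluster by members was that of chromosome 17 from Zfp160 to Zfp13 (21008903 to 23599487), with 16 members among 23 genes, each of the 16 with a KRAB match. Summed, it stood at 1003 and 1047 CPM in control and 1083 and 1157 CPM in knockdown, so both knockdown sums lay above both controls. Of its members 13 had a log2 fold change above 0, the median was 0.13, and 7 were higher in knockdown without overlap and 0 lower, where 15.6% of all genes tested were higher without overlap. None had an unadjusted p under 0.05. The median depended on the library left out: it was 0.04 without control 1, 0.24 without control 2 and 0.14 without either knockdown library. Sequence shared with other genes was low, 0.50% at the median.

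Within it, Zfp942 had the highest CPM, at 197 and 183 CPM in control and 185 in each knockdown library, values that overlap (log2 fold change -0.04, SE 0.10). Zfp947 had the smallest p, at 8.24 and 7.86 CPM in control and 9.81 and 22.1 CPM in knockdown. Its knockdown libraries were both higher and differed from each other by more than the nearer one differed from the controls (log2 fold change 0.99, 95% interval -0.06 to 2.03). Zfp51 was at 123 and 128 CPM in control and 137 and 172 CPM in knockdown, and Zfp820 at 74.8 and 78.1 CPM in control and 84.7 and 99.4 CPM in knockdown. In both the groups did not overlap, with log2 fold changes of 0.30 (SE 0.15) and 0.27 (SE 0.14). Zfp51 and Zfp820 are given for their place in the cluster and were chosen after their values were seen.

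The start windows of this cluster often hold the letters CACGTG, an E-box that reads the same on both strands. They were present in 8 of the 14 member windows, 57.1%, against 8.12% of the 197 member windows and 7.15% of all 32851 windows in RefSeq's table. The windows of Zfp942 (minus strand, chr17:21962415-21962714) and Zfp944 (minus strand, chr17:22361351-22361650), which after Zfp51 had the highest levels per kb of the cluster, show the motif in capitals in near-identical surroundings.
Zfp942: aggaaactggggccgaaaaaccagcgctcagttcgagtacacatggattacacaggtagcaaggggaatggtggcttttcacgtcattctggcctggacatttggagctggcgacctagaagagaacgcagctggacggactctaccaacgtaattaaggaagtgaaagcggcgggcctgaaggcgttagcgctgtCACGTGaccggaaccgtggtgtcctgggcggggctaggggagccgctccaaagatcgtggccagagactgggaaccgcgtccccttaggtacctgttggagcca
Zfp944: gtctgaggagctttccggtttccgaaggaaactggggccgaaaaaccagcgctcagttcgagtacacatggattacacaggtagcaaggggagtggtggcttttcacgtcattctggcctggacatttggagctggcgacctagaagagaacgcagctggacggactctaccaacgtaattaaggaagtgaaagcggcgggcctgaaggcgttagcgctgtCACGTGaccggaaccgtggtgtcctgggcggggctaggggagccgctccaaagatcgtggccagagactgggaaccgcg
The letters GGGCGG, a GC box read on either strand, stood in 11 of the 14 windows, 78.6%, in 47.2% of the member windows and in 35.7% of all windows. Such a share is not particular to this cluster. It was 72.7% of 11 windows in the chromosome 4 cluster and 80.0% of 5 in the chromosome 7 cluster from Zfp787 to Zfp28. In others it was low, 16.7% of 12 windows from Zfp84 to Zfp146 on chromosome 7 and 0.0% of 10 in the chromosome 13 cluster. Matches of the 2 motifs can overlap by an edge letter only. Zfp944 was at 159 and 141 CPM in control and 129 and 158 CPM in knockdown, values that overlap.

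The chromosome 7 cluster from Zfp84 to Zfp146 had 13 members among 15 genes, 9 with a KRAB match. It summed to 395 and 387 CPM in control and 380 and 375 CPM in knockdown, a little lower without overlap. The median log2 fold change was -0.05, with 5 above 0 and 8 below, and it ran from -0.14 to -0.02 when 1 library at a time was left out. Zfp568, which is known to repress a placental Igf2 transcript and is needed in embryonic development, had the highest CPM, at 66.4 and 73.6 CPM in control and 69.3 and 74.1 CPM in knockdown. Its values overlap, and the log2 fold change was 0.03 with a 95% interval from -0.30 to 0.37.

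Zfp146 (ENSMUSG00000037029, chromosome 7, 30161269 to 30169750, minus strand), at the end of that cluster, encodes a short protein of 292 codons that is mostly fingers, with 10 finger matches and no KRAB match. It was at 12.4 and 8.91 CPM in control and 4.05 and 2.27 CPM in knockdown. Both knockdown libraries were below both controls, with the lowest fold change of all members, -1.75 on the log2 scale (SE 0.40, 95% interval -2.76 to -0.75, adjusted p 0.9999 in edgeR). DESeq2 gave -1.74 with an adjusted p of 0.028. Both knockdown values are under 5 CPM, so Zfp146 is a member through its control level alone. Zfp260, the nearest other member of the cluster, was at 53.9 and 39.1 CPM in control and 49.6 and 61.3 CPM in knockdown, values that overlap (log2 fold change 0.25, 95% interval -0.29 to 0.79).

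The chromosome 13 cluster from Zfp712 to Zfp273 was sparsely expressed, with 11 members among 23 genes, each of the 11 with a KRAB match and with 16 finger matches at the median. Zfp58 held the highest CPM, at 92.3 and 78.1 CPM in control and 72.7 and 128 CPM in knockdown, and the knockdown libraries lay on either side of the controls. Zfp58 shares 50.2% of its exon bases with the annotated gene Gm26965 on the same strand. Zfp708, reported to bind a retrotransposon family, was at 19.9 and 42.1 CPM in control and 53.9 and 63.1 CPM in knockdown. Its groups did not overlap (log2 fold change 0.91, SE 0.36, 95% interval 0.01 to 1.82, adjusted p 0.9999 in edgeR), though the controls lay further apart than the nearest control and knockdown libraries. Zfp708 shares 96.4% of its exon bases with the annotated genes Rslcan18 and Gm28557 on the same strand, so its counts cannot be told apart from theirs by position. Rslcan18 itself was counted at 3.18 and 2.59 CPM in control and 1.30 and 2.73 CPM in knockdown. The cluster summed to 295 and 291 CPM in control and 297 and 375 CPM in knockdown, and its median log2 fold change of 0.14 turned to -0.03 without knockdown 2.

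In the other chromosome 17 cluster, from Zfp871 to Zfp414, 11 of 13 genes were members, 10 with a KRAB match. Zfp955b had the highest CPM, at 134 and 110 CPM in control and 86.0 and 136 CPM in knockdown, values that overlap. Zfp563 was at 15.7 and 11.1 CPM in control and 7.32 and 7.34 CPM in knockdown, lower without overlap (log2 fold change -0.87, SE 0.28, 95% interval -1.57 to -0.17). Zfp101 was at 14.5 and 16.2 CPM in control and 31.8 and 20.2 CPM in knockdown, higher without overlap (log2 fold change 0.76, SE 0.28, 95% interval 0.07 to 1.45). These 2, 1 in each direction, were the members at an unadjusted p under 0.05 in edgeR. They are 18.2% of the 11 members, against 3.85% of all genes tested, and a share of so few genes is a description. The median log2 fold change of the cluster was 0.01, from -0.08 to 0.07 without 1 library at a time.

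Among the smaller clusters, 7 members each were found from Zfp141 to Zfp819 and from Zfp180 to Zfp526 on chromosome 7. The first summed to between 211 and 240 CPM and the second to between 196 and 237 CPM over the 4 libraries. Zfp936 led the first at 126 and 131 CPM in control and 141 and 159 CPM in knockdown, higher without overlap (log2 fold change 0.22, 95% interval -0.07 to 0.52). In the second, Zfp575 was at 8.51 and 7.88 CPM in control and 5.06 and 4.21 CPM in knockdown, lower without overlap (log2 fold change -0.82, 95% interval -1.55 to -0.10), and it too is a member through its control level alone. The clusters from Zfp787 to Zfp28 on chromosome 7 and from Zfp930 to Zfp866 on chromosome 8 had 5 members each, that from Zfp560 to Zfp846 on chromosome 9 had 4, and 4 more had 3. The cluster from Zfp354c to Zfp354a on chromosome 11 had 6 genes and no member. Over the 14 clusters with at least 3 members, median log2 fold changes ran from -0.14 to 0.20. They depended on single libraries: 10 of the 14 medians changed sign when 1 library was left out, and the values then reached -0.70 in the chromosome 9 cluster from Zfp653 to Zfp810 without knockdown 1, where the median over all libraries was -0.14, and 0.49 in the chromosome 7 cluster from Zfp607b to Zfp36 without knockdown 2, where it was 0.10.

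**Figure D3:**
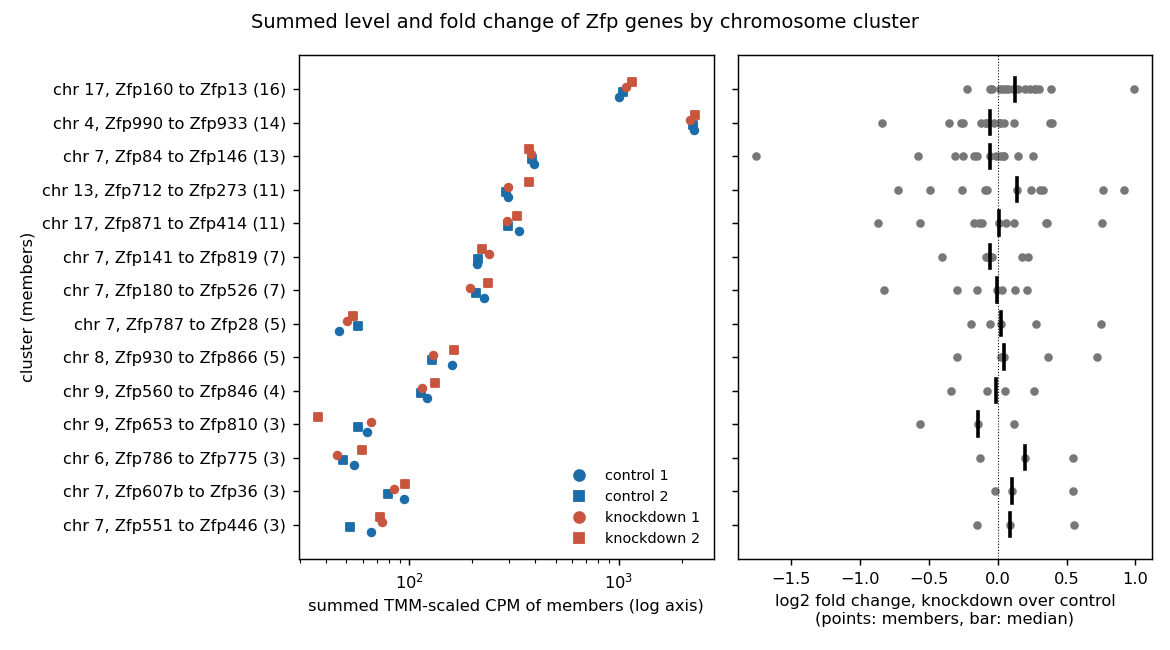
Left, summed TMM-scaled CPM of the members of each chromosome cluster with at least 3 members (log axis), 1 point per library, control in blue and knockdown in red. Right, log2 fold change of each member (points) and their median (bar): the medians lie between -0.14 and 0.20, and in the chromosome 17 cluster from Zfp160 to Zfp13 13 of 16 points lie above 0.

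In the cluster of 7 genes from Zfp551 to Zfp446 on chromosome 7, Zfp329 had the smallest p of the members higher in knockdown. It was at 34.5 and 29.7 CPM in control and 46.7 and 47.4 CPM in knockdown. The knockdown libraries were alike and both higher, a log2 fold change of 0.55 (SE 0.16, 95% interval 0.14 to 0.96, adjusted p 0.9999 in edgeR). Zfp329 has 12 finger matches and no KRAB match, and no 75-base stretch of its transcripts recurs in another gene.

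The smallest p of all members belonged to a scattered gene, Zfp808 (ENSMUSG00000074867, chromosome 13, 62129886 to 62236144), with 22 finger matches behind a KRAB match. It was at 19.9 and 25.9 CPM in control and 10.8 and 9.40 CPM in knockdown. All control values were above all knockdown values, a log2 fold change of -1.18 (SE 0.24, 95% interval -1.78 to -0.58, adjusted p 0.9999 in edgeR). DESeq2 gave -1.17 with an adjusted p of 0.0143. In Zfp808, 16.4% of the exon sequence recurs in other genes.

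Of the remaining scattered genes at an unadjusted p under 0.05, Zfp938 on chromosome 10 was at 13.8 and 8.05 CPM in control and 5.39 and 5.15 CPM in knockdown (log2 fold change -1.05, SE 0.35, 95% interval -1.93 to -0.18). Zfp970 on chromosome 2, one of the members nearest the threshold, was at 3.53 and 3.03 CPM in control and 9.43 and 4.74 CPM in knockdown (log2 fold change 1.11, SE 0.43, 95% interval 0.03 to 2.19). Zfp970 reached the threshold through its higher knockdown library, and its other 3 values are under 5 CPM. Zfp410, which is known as a dedicated activator of the chromatin remodeller gene Chd4, was at 34.4 and 31.4 CPM in control and 23.3 and 25.0 CPM in knockdown. Its groups did not overlap (log2 fold change -0.45, SE 0.17, 95% interval -0.88 to -0.02). Chd4 was at 123 and 140 CPM in control and 140 and 153 CPM in knockdown, which is a log2 fold change of 0.16 (SE 0.12). All 12 members at an unadjusted p under 0.05 had groups that did not overlap. Both come from the same 4 values, so this is no separate evidence.

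**Figure D4:**
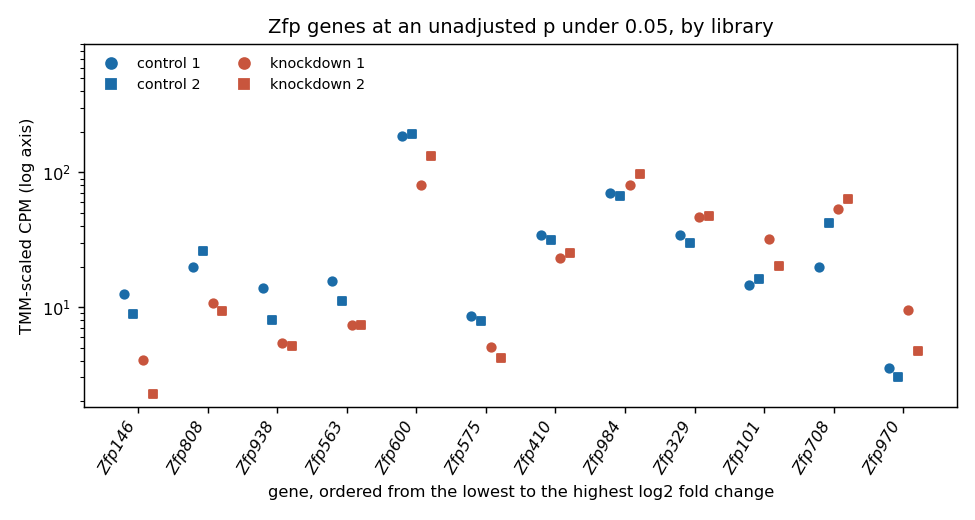
TMM-scaled CPM (log axis) of the 12 expressed Zfp genes at an unadjusted p under 0.05, 1 point per library, control in blue and knockdown in red, ordered from the lowest to the highest log2 fold change. In each gene the 2 knockdown points lie on 1 side of both control points, from Zfp146 at -1.75 to Zfp970 at 1.11, and none passed adjustment over all genes.

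Members with and without KRAB differed in build. The median number of finger matches was 12 with KRAB and 6 without, and the median number of CG pairs in the start window was 10 and 20. Median levels were 4.66 CPM per kb with KRAB and 3.94 CPM per kb without. With KRAB, 68 of 146 members lay above 0 with a median log2 fold change of -0.02, and 8, 5.48%, had an unadjusted p under 0.05. Without it, 50 of 89 lay above 0 with a median of 0.03, and 4, 4.49%, had such a p, against 3.85% of all genes tested. Summed CPM with KRAB was 8318 and 7928 in control and 7754 and 8487 in knockdown, and without it 7133 and 6946 in control and 7004 and 7477 in knockdown. Neither sum separated the groups. GGGCGG was found in 40.6% of the windows of members with KRAB and 59.4% of those without, and TATAAA, the core of a TATA box, in 2.34% and 8.70%, against 13.6% of all windows, each searched on both strands.

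An example of the second kind is the start window of Zfp655 (plus strand, chr5:145231492-145231791), the highest member by CPM, shown with its 25 CG pairs in capitals beside the 5 of Zfp979 and Zfp982 above.
Zfp655: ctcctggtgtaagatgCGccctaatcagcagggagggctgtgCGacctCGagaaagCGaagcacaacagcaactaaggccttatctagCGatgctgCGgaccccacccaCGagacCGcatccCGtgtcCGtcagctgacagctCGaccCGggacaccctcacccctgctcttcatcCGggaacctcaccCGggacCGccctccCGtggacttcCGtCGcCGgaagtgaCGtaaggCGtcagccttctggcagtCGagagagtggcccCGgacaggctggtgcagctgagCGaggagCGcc
Across the 197 members with a window, the number of CG pairs and the level per kb on the log2 scale had a Pearson r of -0.03 and a Spearman rho of -0.04. Both are correlations across genes, which are not independent replicates, over the same libraries.

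KRAB proteins with known targets ranged widely in level. Zfp809, which silences retroviruses through their primer binding site, was at 34.3 and 30.9 CPM in control and 39.1 and 20.0 CPM in knockdown. The knockdown libraries lay on either side of the controls. Zfp445, which protects imprinted methylation, was at 62.5 and 49.2 CPM in control and 49.7 and 54.5 CPM in knockdown, values that overlap (log2 fold change -0.10, 95% interval -0.54 to 0.34). Zfp819, linked to repression of retroelements in pluripotent cells, was at 14.9 and 9.83 CPM in control and 11.2 and 12.6 CPM in knockdown, also overlapping. Zfp932, which binds endogenous retroviruses, was at 216 and 208 CPM in control and 216 and 236 CPM in knockdown, the lowest knockdown value just above the highest control value (log2 fold change 0.09, SE 0.11). Zfp961 was at 197 and 186 CPM in control and 155 and 179 CPM in knockdown, lower without overlap (log2 fold change -0.20, 95% interval -0.50 to 0.10).

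Transcription factors without KRAB were next. Zfp281, a regulator of pluripotency genes, was at 57.1 and 61.8 CPM in control and 65.3 and 42.2 CPM in knockdown, values that overlap. Zfp143, which binds many promoters and takes part in chromatin looping, was at 38.1 and 29.9 CPM in control and 27.0 and 22.7 CPM in knockdown. For Zfp143 the groups did not overlap (log2 fold change -0.45, SE 0.21, 95% interval -0.97 to 0.06). Zfp148, a GC-box binding factor, was at 216 and 243 CPM in control and 245 and 244 CPM in knockdown. Zfp217, Zfp131, Zfp318 and Zfp687 had log2 fold changes between -0.04 and 0.20. Zfp644, a partner of the H3K9 methyltransferases G9a and GLP, was at 113 and 105 CPM in control and 104 and 88.4 CPM in knockdown, lower without overlap (log2 fold change -0.18, 95% interval -0.52 to 0.16).

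The finger proteins that act on RNA, ribosomes, spindles or ubiquitin-like tags came last. Zfp207, a spindle assembly factor also known as BuGZ, was at 206 and 181 CPM in control and 178 and 204 CPM in knockdown, and the groups overlap. Zfp638, an RNA-binding protein that also silences unintegrated retroviral DNA, was at 226 and 212 CPM in control and 221 and 294 CPM in knockdown, overlapping as well. Zfp598, the ubiquitin ligase that senses collided ribosomes, was at 15.8 and 17.1 CPM in control and 17.3 and 19.3 CPM in knockdown. Zfp622, a factor of ribosome subunit maturation, was at 12.2 and 11.9 CPM in control and 17.4 and 7.27 CPM in knockdown, so the knockdown libraries lay on either side of the controls. Zfp451, a SUMO ligase, Zfp91, a ubiquitin ligase, and the splicing-associated Zfp326 and Zfp830 had log2 fold changes of -0.02, 0.27, -0.24 and 0.07. None of them was among the 12 at an unadjusted p under 0.05.

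The partners that KRAB proteins need were listed separately. Of 48 genes of corepressors and heterochromatin factors, 47 were in the table and all 47 were tested. At an unadjusted p under 0.05, 3 were higher in knockdown and 0 lower, 6.38% of the list against 3.85% of all genes tested, and 0 passed adjustment. Above 0 were 33 of the 47, 70.2% against 49.7% of all genes tested, with a median log2 fold change of 0.10. Of the tested genes that reached 5 CPM on average, 53.3% lay above 0. The list summed to 8554 and 8675 CPM in control and 8320 and 10182 CPM in knockdown, so the sums overlap, and 12 of the 47 genes, 25.5%, had groups that did not overlap, against 32.7% of all genes tested. Trim28, the corepressor itself, was at 28.4 and 31.6 CPM in control and 38.6 and 45.8 CPM in knockdown, higher without overlap (log2 fold change 0.49, SE 0.18, 95% interval 0.05 to 0.93, adjusted p 0.9999 in edgeR). Smarca5, the motor of ISWI chromatin remodellers, was at 232 and 219 CPM in control and 306 and 279 CPM in knockdown (log2 fold change 0.37, SE 0.11, 95% interval 0.11 to 0.64). Atrx, which deposits histone H3.3 at repeats together with Daxx, was at 687 and 709 CPM in control and 774 and 919 CPM in knockdown (log2 fold change 0.28, 95% interval 0.01 to 0.55). Setdb1, the H3K9 methyltransferase, was at 132 and 115 CPM in control and 115 and 150 CPM in knockdown, values that overlap (log2 fold change 0.10, SE 0.17). The smallest p of those lower in knockdown belonged to Mta1 and Hdac1, at log2 fold changes of -0.45 and -0.52, both of the NuRD deacetylase complex.

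Copies and overlaps bear on some of these counts. Over 10% of the 75-base stretches in a member's transcripts recurred in another gene for 42 of the 235 members, and 118 had no such stretch. The other gene can be one annotated over the same bases, so the 42 include overlaps as well as copies. Zfp708, Zfp58, Zfp729b and Zfp82 had 94.3%, 44.8%, 38.8% and 31.8% of stretches recurring. They shared 96.4%, 50.2%, 40.7% and 34.2% of exon bases with genes on the same strand. Among the 42, 5 had an unadjusted p under 0.05, 11.9%, and among the 118, 4, 3.39%, against 3.85% of all genes tested. Exon bases were shared with another annotated gene in 68 members, over 10% of them in 25 and over 50% in 3. Among the 12 members at an unadjusted p under 0.05, Zfp708 shared 96.4%, Zfp984 9.68%, Zfp575 3.61% and Zfp410 2.03%, and the other 8 none.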

How the data were processed

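RNA of whole mouse 2-cell embryos was sequenced in 2 control and 2 knockdown libraries. The authors deposited whole-number counts per gene, not normalized by their values. Upstream, the submitters' processing notes list HISAT2 2.1.0, mm10, Picard 2.18.2, Trim Galore 0.6.5 and CASAVA 1.8. The counter, annotation and strand setting were not given in the sources used here. Genes that overlap on either strand may therefore share reads.

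Of 53715 rows, 53620 matched GENCODE M21 (GRCm38) by Ensembl ID without version. The test was edgeR 4.0.16 under R 4.3.3 (filterByExpr with a minimum of 10 counts, 25565 genes, TMM scaling, quasi-likelihood test with group as the only term, two-sided, Benjamini-Hochberg adjustment over all genes, threshold 0.05). Levels are TMM-scaled CPM, per kb of merged exons where genes are compared. The SE of a log2 fold change was taken from it and the F statistic. DESeq2 1.42.0, limma-voom (limma 3.58.1), other scalings, filters and member thresholds, and each library left out were alternatives. The test was checked on simulated data.

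The labels do not say that libraries came from separate embryo collections, so p-values measure only the spread between libraries, which may be technical. Every pair of libraries differed by more than sampling noise (chi-square over its degrees of freedom from 28.8 for the controls to 94.8 for the knockdown libraries), so every library was used as its own sample.

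Clusters chain Zfp genes with gaps of at most 500 kb. Finger matches (C, 2 to 4 residues, C, 12 residues, H, 3 to 5 residues, H) and KRAB matches were read from translated GENCODE coding sequences, not from a protein table. KRAB used a profile of 39 residues built from 114 windows of these genes, with a minimum score of 15 bits. Start windows are RefSeq's (GRCm38.p6), matched by symbol for 197 of 235 members.

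The named genes are the 10 highest per kb, the 5 smallest p in each direction, the highest CPM and smallest p in the 5 largest clusters, a panel of known genes, the 3 on either side of the threshold, and the first 2 of the corepressor list in each direction with Trim28 and Setdb1. Zfp260 is named for its place next to Zfp146. Others named are Zfp410, Zfp575, Atrx, Rex2 and Prdm9, which complete counts. Zfp937, Zfp51, Zfp820, Zfp944, Zfp985, Rslcan18 and Chd4 were chosen after their values were seen. The members and lists were chosen with earlier results of these data known.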

Additional observations from a re-analysis of the deposited data

How the results depend on the processing

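No member passed in edgeR under any scaling, filter, member threshold or left-out library tried, and DESeq2 called 2 members and 53 of all genes. Leaving out 1 library gave 0 to 3 genes called over the whole table. Without 1 library, members at an unadjusted p under 0.05 numbered 4 to 49. The 49 came without knockdown 1, where 13.1% of all genes had such a p, and 27 came without knockdown 2, against 8.02%. The 4 came without control 1. The lone library is assumed there to vary like the other group. Members without overlap numbered 138 to 178 in those settings, with fewer values to overlap. The median log2 fold change of the members ran from -0.05 to 0.04 there. With the replicate number as a block, 7 members had an unadjusted p under 0.05 and 0 were called. The deviations of same-numbered libraries correlated at -0.0194, so the numbers are not shown to pair the libraries. The cause of these shifts was not tested.

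The 5 members with the smallest p in each direction kept their direction in every alternative tried. Near 0, 22 of 53 named genes turned with a library left out. Ranges were -0.059 to 0.15 for Zfp982, -0.075 to 0.11 for Zfp979, -0.10 to 0.17 for Zfp655, -0.026 to 0.038 for Zfp706, -0.031 to 0.22 for Zfp735 and -0.043 to 0.060 for Zfp280b. They were -0.090 to 0.01 for Zfp942, -0.041 to 0.11 for Zfp568, -0.22 to 0.59 for Zfp58, -0.50 to 0.15 for Zfp955b, -0.70 to 0.27 for Zfp809 and -0.26 to 0.080 for Zfp445. For Zfp819 the range was -0.33 to 0.27, for Zfp281 -0.49 to 0.14, for Zfp207 -0.11 to 0.079, for Zfp217 -0.37 to 0.23, for Zfp451 -0.18 to 0.12 and for Zfp622 -0.73 to 0.53. For Zfp687 it was -0.048 to 0.071, for Zfp830 -0.057 to 0.19, for Zfp28 -0.42 to 0.67 and for Setdb1 -0.10 to 0.28. At a filter of 5 CPM, Zfp706 was at -0.012, Zfp280b at -0.005 and Zfp687 at -0.0062. Zfp622 was at -0.10 with the replicate block and at -0.097 with limma-voom.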

Other observations

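Zinc finger families under other names were counted beside the Zfp genes with the same edgeR test. Of 19 Zscan genes, whose Zscan4 copies are known for transcription in 2-cell embryos and are near-identical, 15 lay above 0 with a median log2 fold change of 0.45, against -0.0025 over all genes tested. Summed, they stood at 788 and 858 CPM in control and 1132 and 1085 CPM in knockdown, higher without overlap. At an unadjusted p under 0.05 were 5 Zscan genes higher and 1 lower, against 1.56% and 2.29% of all genes tested. Together they are 31.6% of the list, against 3.85% of all genes tested, and 0 passed adjustment. The 5 higher were all Zscan4 copies (Zscan4c, Zscan4d, Zscan4f, Zscan4-ps2 and Zscan4-ps3), and the 1 lower was Zscan12. Apart from Zscan4 copies, the Zscan genes with the highest CPM, Zscan21, Zscan29 and Zscan26, had values that overlap. Of 11 Zkscan genes 7 lay above 0 with a median of 0.06 and 0 had such a p. Of 41 genes with a symbol starting in Zbtb, which name proteins with a BTB domain in place of KRAB apart from Zbtb8os, 22 lay above 0 with a median of 0.08, and 1 had such a p, higher in knockdown. The 2-cell markers, 4 of 12 at an unadjusted p under 0.05, share Zscan4 genes with the first family, and their part in its values was not tested.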
